A study of Mus musculus with 8 samples.

Results

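The genes described are 10 cytokines, receptors and transcription factors of type 1 helper T cells: Ifng, Tnf, Tbx21, Eomes, Stat4, Il12rb1, Il12rb2, Il18r1, Il18rap and Cxcr3. They were taken by symbol from the 37411 genes of the deposited table of raw counts, and each was given as CPM, counts scaled to a common library size, in every library. All 10 were in the table. The filter on low counts kept 10000 genes for testing, and 9 of the 10 passed it, all except Il12rb2.

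RNA came from sorted congenic CD4+ effector T cells, about 10000 per sample, 6 weeks after transfer into C57BL/6 Rag1-/- hosts, which lack their own T and B cells. The transferred cells carried the LMPd retrovirus with a hairpin against Mdr1 (shMdr1), the multidrug efflux transporter, or against CD8 (shCD8, the control). Hosts were Asbt+/+ or Asbt-/-, that is, with or without the ileal bile acid transporter that Slc10a2 encodes, and cells were isolated from small intestine lamina propria or from spleen. Each of the 8 combinations had 1 library: shMdr1 and shCD8, in small intestine and in spleen, of Asbt+/+ and of Asbt-/- hosts. Every group therefore shared the Rag1 deletion, the transfer and a retrovirus, and no untransduced cells were part of the design. The hairpin was read from the sample titles, since another label names shMdr1 for all 8 libraries. The labels give no age, and they do not say whether the libraries came from separate animals or pools, so the p-values below reflect only how much these samples vary, and that variation may be technical.

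Type 1 helper cells arise when interleukin 12 from antigen-presenting cells binds its receptor, whose chains are encoded by Il12rb1 and Il12rb2, and activates STAT4. STAT4 and T-bet, the T-box factor encoded by Tbx21, then open and drive Ifng, and T-bet induces the chemokine receptor CXCR3. Interleukin 18, acting through the chains encoded by Il18r1 and Il18rap, strengthens interferon gamma production, and Eomes encodes a second T-box factor best known from CD8 T cells and NK cells. In T cell transfer models of colitis, type 1 and type 17 cells are the main effector populations.

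The proximal promoters of 4 genes are shown, because Tbx21, Il18rap and Eomes are the genes whose hairpin pairs all shared a direction and Ifng is the output gene of the programme. Each line gives the 250 bases before the transcription start, 5′ to 3′ on the strand of the gene, from RefSeq on GRCm38.p6. The windows are chr10:118440796-118441045 (plus strand), chr11:97115332-97115581 (minus), chr1:40515112-40515361 (plus) and chr9:118477939-118478188 (plus). Capitals mark the one match found to any of 4 motifs searched on both strands.
Ifng: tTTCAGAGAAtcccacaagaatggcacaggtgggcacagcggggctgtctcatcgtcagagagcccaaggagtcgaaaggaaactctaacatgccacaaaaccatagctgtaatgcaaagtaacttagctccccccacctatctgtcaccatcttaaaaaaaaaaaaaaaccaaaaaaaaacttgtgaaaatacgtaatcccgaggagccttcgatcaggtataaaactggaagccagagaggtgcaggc
Tbx21: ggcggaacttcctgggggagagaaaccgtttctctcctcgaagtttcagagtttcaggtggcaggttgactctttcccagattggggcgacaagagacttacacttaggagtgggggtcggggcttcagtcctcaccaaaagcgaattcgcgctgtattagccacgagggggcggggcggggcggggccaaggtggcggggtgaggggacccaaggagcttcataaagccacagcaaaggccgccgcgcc
Il18rap: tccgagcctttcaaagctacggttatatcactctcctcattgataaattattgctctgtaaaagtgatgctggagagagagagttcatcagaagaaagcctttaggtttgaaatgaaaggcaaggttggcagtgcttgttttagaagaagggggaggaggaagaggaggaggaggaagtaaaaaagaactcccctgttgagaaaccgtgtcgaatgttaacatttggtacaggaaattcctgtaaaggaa
Eomes: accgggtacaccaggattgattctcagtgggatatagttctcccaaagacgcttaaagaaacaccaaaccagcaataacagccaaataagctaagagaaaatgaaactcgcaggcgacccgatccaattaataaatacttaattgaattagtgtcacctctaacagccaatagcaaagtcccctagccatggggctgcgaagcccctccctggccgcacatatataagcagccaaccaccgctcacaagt

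The motifs were the T-box core GGTGTG, the STAT site TTCNNNGAA, the NFAT core GGAAAA and the AP-1 site TGANTCA. Within the printed windows the single match was the STAT site 249 bases before the Ifng start, and no match overlapped another. Over the full 300-base windows, which run 50 bases past the start, the RefSeq table held 12 promoters of 9 of the genes; Il12rb1 was not matched. The STAT site was found for Ifng, Il12rb2 and Il18r1, against 8.3% of 32851 promoters of the same length in all. The T-box core was found for Il18r1 alone (19% of all promoters), the NFAT core for Tnf, Stat4 and Il18r1 (23.4%), and the AP-1 site for none of the 9 (7.81%). Il18r1 had 3 promoters and Stat4 had 2, and the other 7 genes had 1 each. A gene was named if any of its promoters held a match, while each percentage is a share of single promoters. The genes named and the percentages are therefore not in the same unit.

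Library totals ran from 1685225 to 2767105 counts, and the 10 genes together took 0.0854 to 0.208% of them. The shCD8 small intestine Asbt+/+ library stands apart from the rest: it had counts for 8456 genes, while the other 7 had counts for 11345 to 13184. The shMdr1 spleen Asbt-/- library, which holds the lowest Ifng and Eomes, also stands apart, with 26.8% mitochondrial and 3.69% hemoglobin counts, where no other library exceeded 0.554% hemoglobin. Mitochondrial counts were 18.3% in shMdr1 small intestine Asbt+/+, 17.6% in shCD8 spleen Asbt-/- and 6.63 to 8.62% in the other 5. Abcb1a, which the Mdr1 hairpin targets, was lower with shMdr1 in 3 of the 4 pairs: 40.4 against 91.0 CPM in Asbt-/- small intestine, 18.7 against 40.8 CPM in Asbt+/+ spleen and 22.2 against 29.7 CPM in Asbt-/- spleen. In Asbt+/+ small intestine the library labelled shMdr1 held 14.8 CPM and the library labelled shCD8 held 8.28 CPM, from 23 and 21 counts, which is opposite to the labels; both are called by their labels below. Slc10a2 had 4 counts in all, every one of them in the Asbt-/- libraries, 1 in small intestine and 3 in spleen, and so it does not check the host, since it is not a T cell gene. Cd4 was 108 to 234 CPM and all 12 CD4 T cell identity genes had counts in all 8 libraries.

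Per kilobase of exon in GENCODE vM21, the mean level over the 8 libraries was highest for Ifng, at 445 CPM per kilobase. Tnf followed at 86.6, Cxcr3 at 74.0, Il18r1 at 57.2, Stat4 at 27.5, Il18rap at 15.2, Tbx21 at 10.5, Eomes at 8.89 and Il12rb1 at 4.66 CPM per kilobase. Il12rb2 came last, at 0.0344 CPM per kilobase. Within 1 gene, the highest library exceeded the lowest by 8.12-fold for Eomes, 8.02-fold for Tnf, 5.11-fold for Ifng and 4.38-fold for Il18rap. The span was narrower for Tbx21 (4.30-fold), Cxcr3 (2.65-fold), Stat4 (2.38-fold) and Il18r1 (1.88-fold).

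**Figure D1:**
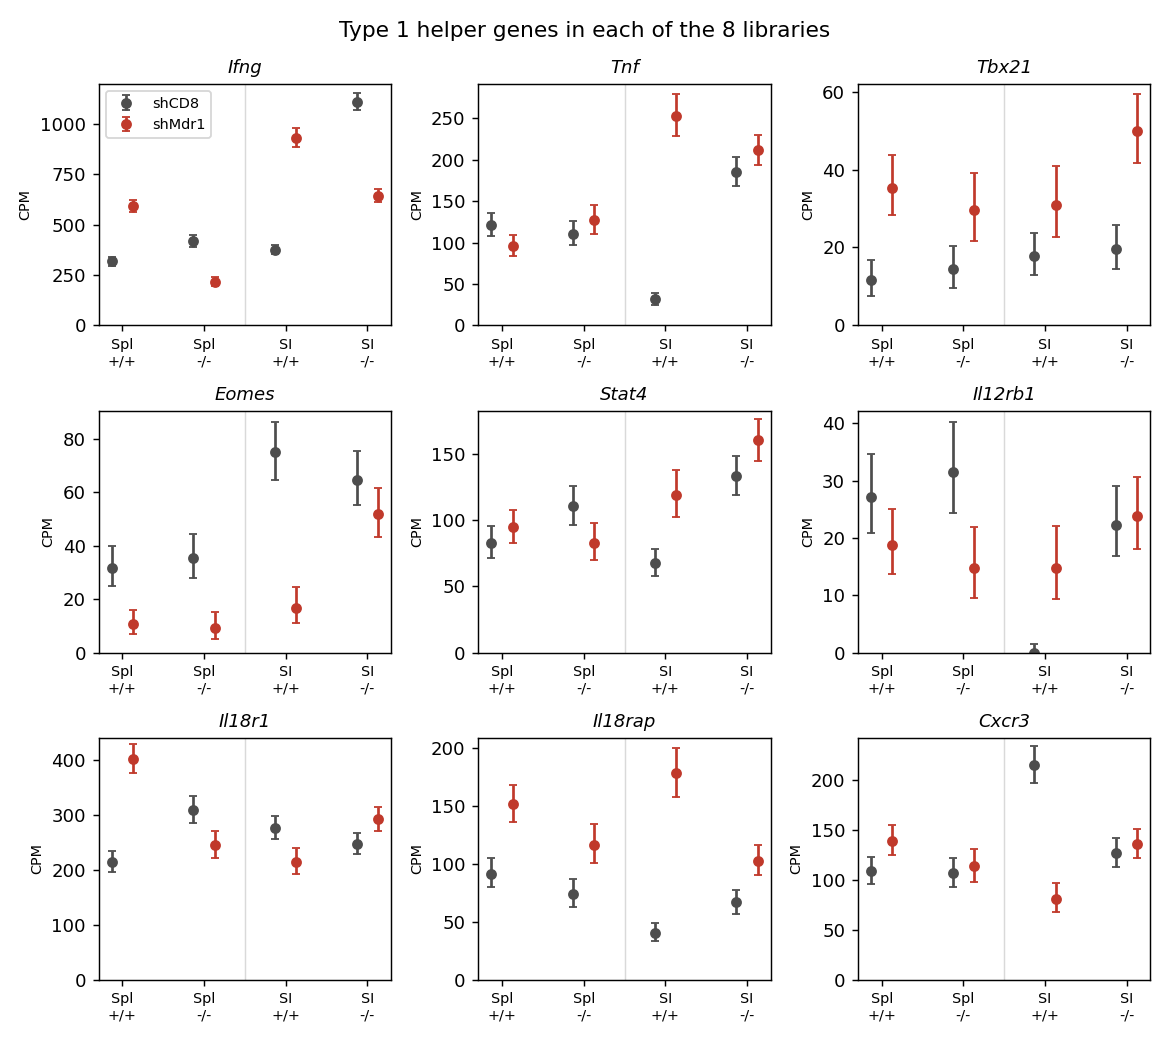
Level of the 9 tested genes in each library, in CPM (vertical axes start at 0), by tissue and host (Spl, spleen; SI, small intestine; +/+ and -/-, host Asbt genotype) with shCD8 in grey and shMdr1 in red; bars are 95% Poisson intervals of the counts and cover counting error only. Tbx21 and Il18rap are higher in red than in grey in all 4 tissue and host combinations, Eomes is lower, and Il12rb1 is at 0 in the shCD8 small intestine Asbt+/+ library.

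None of the 9 tested genes passed the edgeR test (adjusted p under 0.05 over all 10000 genes) between tissues, between hairpins or between hosts. The share of all tested genes that passed was 0.62% between tissues, 0% between hairpins and 0% between hosts. At an unadjusted p under 0.05, Ifng and Eomes stood out between tissues, where 8.45% of all genes did, and Tbx21, Il18rap and Eomes between hairpins, where 2.99% did. Between hosts none of the 9 did, against 2.71% of all genes. The DESeq2 Wald test and limma-voom also called none of the 9 in any of the 3 comparisons. In bulk samples such as these, fewer cells expressing a gene and less RNA per cell cannot be told apart.

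**Figure D2:**
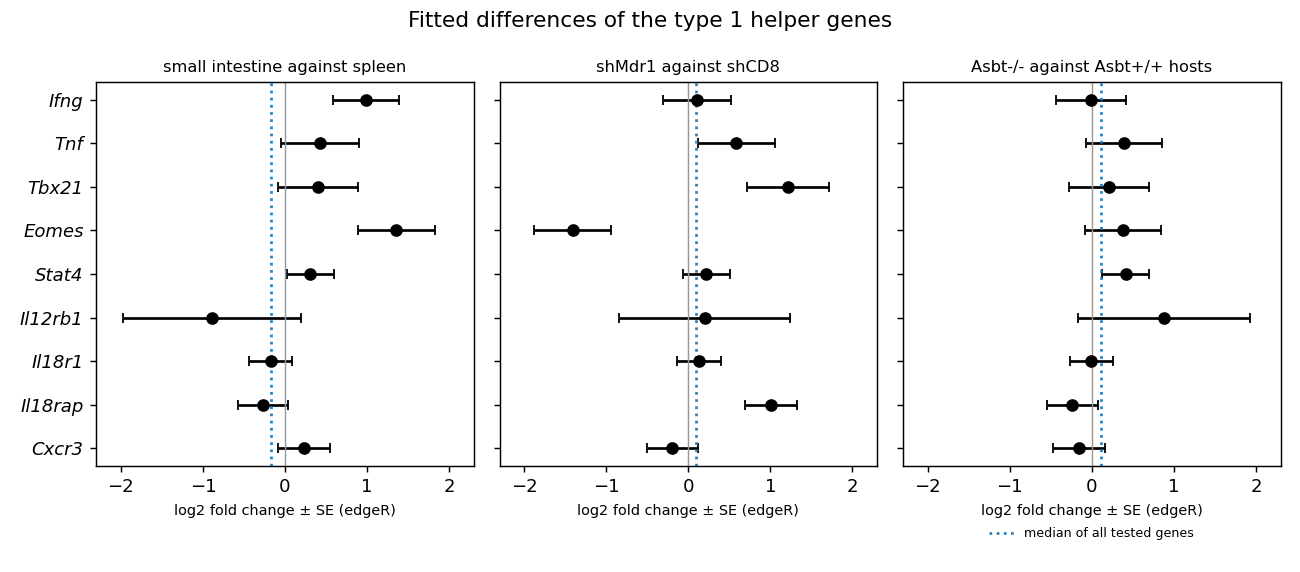
Log2 fold change ± SE from the additive edgeR fit for the 9 tested genes (points, 4 libraries against 4) in each comparison, with the median of all 10000 tested genes as a dotted line at -0.17, 0.09 and 0.11. Ifng and Eomes lie to the right between tissues, Tbx21 and Il18rap to the right and Eomes to the left between hairpins, and the points between hosts lie closer to 0 than those.

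Ifng encodes interferon gamma, the signature cytokine of type 1 cells. In small intestine it was 377 CPM with shCD8 and 931 with shMdr1 when hosts were Asbt+/+, and 1111 with shCD8 and 645 with shMdr1 when they were Asbt-/-. The spleen values were 318 CPM with shCD8 and 592 with shMdr1 (Asbt+/+), and 419 with shCD8 and 217 with shMdr1 (Asbt-/-). Small intestine was higher than spleen in each of the 4 pairs alike in hairpin and host, but the ranges of the tissues overlapped. Small intestine averaged 766 ± 323 CPM (SD, n = 4) and spleen 387 ± 160 CPM, a log2 fold change of 0.99 ± 0.40 (SE) that did not pass (edgeR adjusted p = 0.534). It was 0.63 ± 0.39 without the shMdr1 spleen Asbt-/- library. Of all tested genes, 8.14% were higher in small intestine in all 4 pairs.

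The 4 shMdr1 against shCD8 pairs of Ifng split by host. With shMdr1 the log2 ratio of CPM was 1.30 (small intestine) and 0.90 (spleen) when hosts were Asbt+/+, and -0.78 (small intestine) and -0.94 (spleen) when they were Asbt-/-. By the labels, Ifng was thus higher with shMdr1 in both Asbt+/+ pairs and lower in both Asbt-/- pairs, and the counting intervals of the libraries of each pair did not overlap. Averaged over the hosts, the hairpin difference was 0.11 ± 0.42 and the host difference -0.01 ± 0.42 on the log2 scale. The host-dependent part of the hairpin effect was -1.92 ± 0.59 (log2, Asbt-/- minus Asbt+/+), which did not pass edgeR over all genes (adjusted p = 1). At an unadjusted p under 0.05, 1.19% of all genes differed in this way and Ifng was the single member among them. With each library left out in turn, a set of fits added after seeing the data, it lay between -2.47 and -1.50. Without shCD8 spleen Asbt+/+, the same contrast was -2.60 for Tnf and -8.63 for Il12rb1. That fit leaves shCD8 small intestine Asbt+/+ as the only shCD8 library of Asbt+/+ hosts. It had 0 counts of Il12rb1 and the lowest Tnf. Without shCD8 small intestine Asbt+/+ instead, the contrast was 0.29 for Tnf and 0.19 for Il12rb1. One of the Ifng ratios, 1.30, comes from the Asbt+/+ small intestine pair. The Abcb1a levels of that pair are opposite to its labels, but their counting intervals overlapped and do not settle the labels. Exchanging the labels would turn the sign of that ratio. Without that pair the host-dependent part was -1.76 ± 0.72 (edgeR adjusted p = 1), and the Asbt+/+ side then rests on the spleen pair alone. Without the shMdr1 spleen Asbt-/- library it was -1.57 ± 0.63 (adjusted p = 1).

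**Figure D3:**
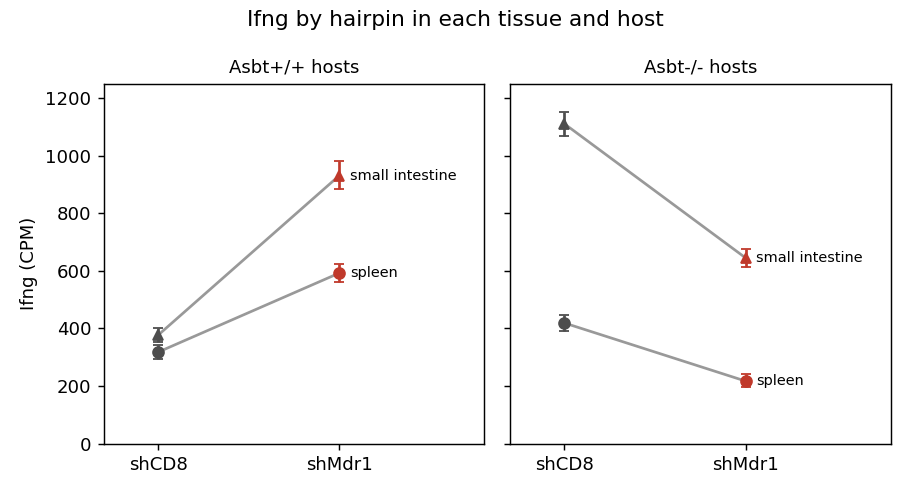
Ifng in CPM (vertical axis from 0) for shCD8 and shMdr1 in Asbt+/+ hosts (left) and Asbt-/- hosts (right), with a line joining the libraries of 1 tissue (triangles, small intestine; circles, spleen) and 95% Poisson intervals of the counts as bars. Both lines go up from shCD8 to shMdr1 on the left, to 931 and 592 CPM, and down on the right, to 645 and 217 CPM.

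Tnf, the gene of tumour necrosis factor, which T cells and myeloid cells both make, varied most in small intestine. There it was 31.5 CPM with shCD8 and 253 with shMdr1 in Asbt+/+ hosts, and 185 with shCD8 and 211 with shMdr1 in Asbt-/- hosts. In spleen it was 121 and 96.2 CPM in Asbt+/+ hosts and 111 and 127 CPM in Asbt-/- hosts, for shCD8 and shMdr1 respectively. The lowest and the highest of the 8 values are thus the 2 small intestine Asbt+/+ libraries, and the other 6 lie between 96.2 and 211 CPM. The log2 fold change was 0.43 ± 0.47 between tissues, 0.58 ± 0.47 between hairpins and 0.39 ± 0.46 between hosts, none of which passed edgeR (adjusted p = 0.864, 0.999 and 0.996). Within small intestine the hairpin difference was 1.57 ± 0.70 and within spleen -0.07 ± 0.63. The difference between the tissues, 1.64 ± 0.94, did not pass edgeR (adjusted p = 1). The small intestine value rests on the Asbt+/+ pair, whose log2 ratio was 2.97, while the Asbt-/- pair alone gave 0.19. Without shCD8 small intestine Asbt+/+ the hosts differed by -0.06, and without shMdr1 small intestine Asbt+/+ the tissues by -0.11.

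Tbx21 encodes T-bet, the lineage factor of type 1 cells. With shMdr1 it was 30.8 and 49.9 CPM in small intestine of Asbt+/+ and Asbt-/- hosts, and 35.4 and 29.5 CPM in spleen. With shCD8 it was 17.7 and 19.6 CPM in small intestine and 11.6 and 14.4 CPM in spleen, in the same order. The lowest shMdr1 library therefore lay above the highest shCD8 library. The means were 36.4 ± 9.35 CPM (SD, n = 4) and 15.8 ± 3.54 CPM, a log2 fold change of 1.22 ± 0.50, higher in 4 of 4 pairs, not passing by edgeR (adjusted p = 0.999). Of all tested genes, 8.32% were higher with shMdr1 in all 4 pairs. The values rest on 27 to 126 counts per library. The log2 fold change was 1.07 ± 0.75 within small intestine and 1.32 ± 0.76 within spleen, and it was 1.33 ± 0.38 without both small intestine Asbt+/+ libraries.

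Eomes, the other T-box factor, went the opposite way between hairpins. With shMdr1 it was 16.7 and 51.9 CPM in small intestine of Asbt+/+ and Asbt-/- hosts, and 10.8 and 9.23 CPM in spleen. With shCD8 it was 74.9 and 64.6 CPM in small intestine and 31.8 and 35.4 CPM in spleen. Each shMdr1 library was below its own shCD8 partner, although the shMdr1 small intestine Asbt-/- library was above both shCD8 spleen libraries, so the groups overlapped. These values rest on 15 to 190 counts per library. The log2 fold change was -1.41 ± 0.47, lower in 4 of 4 pairs, where 7.38% of all genes were lower in all 4 pairs, and it did not pass edgeR (adjusted p = 0.999). Without both small intestine Asbt+/+ libraries it was -1.20 ± 0.41. It was -1.22 ± 0.72 within small intestine and -1.74 ± 0.71 within spleen, where 0.62% of all genes reached an unadjusted p under 0.05 as Eomes did. Between tissues Eomes was 52.0 ± 25.4 CPM in small intestine and 21.8 ± 13.7 CPM in spleen (SD, n = 4), a log2 fold change of 1.36 ± 0.47, higher in 4 of 4 pairs, which did not pass either (edgeR adjusted p = 0.407).

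The ratio of Tbx21 to Eomes counts, which does not depend on the library total, was chosen after both sets of values had been seen and is given as a description with no test. It was 1.85, 0.962, 3.27 and 3.20 in the shMdr1 libraries of small intestine Asbt+/+, small intestine Asbt-/-, spleen Asbt+/+ and spleen Asbt-/-. In the shCD8 libraries of the same order it was 0.237, 0.302, 0.365 and 0.405. The hairpin groups did not overlap in this ratio. As Tbx21 was already higher without overlap and Eomes lower in each pair, this is not separate evidence. The ratios of Il18rap to Il18r1, Ifng to Tnf and Ifng to Tbx21 overlapped between the hairpins.

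**Figure D4:**
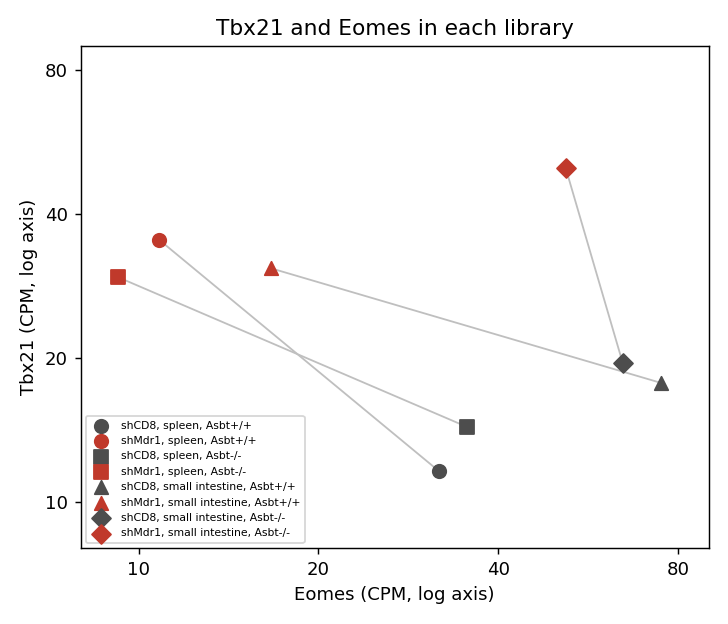
Tbx21 against Eomes in each of the 8 libraries, in CPM on log axes, with shCD8 in grey, shMdr1 in red, a symbol for each tissue and host, and a grey line joining the libraries alike in both. Each line runs from lower right (shCD8) to upper left (shMdr1), with the shortest horizontal step for small intestine Asbt-/-, from 64.6 to 51.9 CPM of Eomes.

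Of the interleukin 18 receptor chains, Il18rap encodes the accessory chain that completes the signalling complex. With shMdr1 it was 178 and 103 CPM in small intestine of Asbt+/+ and Asbt-/- hosts, and 151 and 116 CPM in spleen. With shCD8 it was 40.6 and 66.6 CPM in small intestine and 91.6 and 74.2 CPM in spleen, again with no overlap between the hairpins. The means were 137 ± 34.0 CPM (SD, n = 4) and 68.3 ± 21.2 CPM, a log2 fold change of 1.01 ± 0.31, higher in 4 of 4 pairs, which did not pass edgeR (adjusted p = 0.999). At an unadjusted p under 0.05, Il18rap differed within small intestine, where 4.81% of all genes did. It was 1.37 ± 0.47 within small intestine and 0.69 ± 0.45 within spleen, and the difference between the tissues, 0.69 ± 0.65, did not pass (edgeR adjusted p = 1). Within small intestine the log2 ratio was 2.11 in the Asbt+/+ pair and 0.62 in the Asbt-/- pair, the latter close to the spleen pairs at 0.72 and 0.64. Without both small intestine Asbt+/+ libraries, which hold the highest and the lowest value, it was 0.66 ± 0.26.

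Tbx21 and Il18rap were the 2 of 9 tested genes whose hairpin groups did not overlap, both higher with shMdr1. At the edge between the groups, the 95% counting intervals of the lowest shMdr1 and the highest shCD8 library overlapped for both genes: 21.8 to 39.2 CPM and 14.5 to 25.9 CPM for Tbx21, and 90.5 to 116 CPM and 79.7 to 105 CPM for Il18rap. Of all tested genes 2.79% did not overlap between hairpins, and 1.45% did not overlap and were higher with shMdr1. No member's groups were without overlap between tissues, where 8.07% of all genes were, or between hosts, where 2.71% were. Between tissues, Ifng, Tnf and Stat4 no longer overlapped without shCD8 small intestine Asbt+/+ (13.2% of all genes), Eomes without shMdr1 small intestine Asbt+/+ (13.4%), and all 4 without both (24.4%). Between hairpins, groups that do not overlap cannot come to overlap when libraries are left out, so leaving libraries out does not test Tbx21 and Il18rap. Of all genes, 5.10 to 5.93% did not overlap when any 1 library was left out. Without both small intestine Asbt+/+ libraries, 1005 of 10000 genes did not. Without shMdr1 small intestine Asbt-/-, Eomes also did not overlap, as lower with shMdr1, where 5.83% of all genes did not. These counts with libraries left out were added after seeing the data.

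Il18r1, which encodes the ligand-binding chain of the same receptor, did not share this pattern. It was 277, 215, 248 and 292 CPM in small intestine, for shCD8 Asbt+/+, shMdr1 Asbt+/+, shCD8 Asbt-/- and shMdr1 Asbt-/-, and 215, 403, 309 and 246 CPM in spleen in the same order. The highest value was shMdr1 spleen Asbt+/+, and the other 7 libraries lay between 215 and 309 CPM. The log2 fold change was -0.18 ± 0.27 between tissues, 0.13 ± 0.27 between hairpins and 0.00 ± 0.27 between hosts, with 2 of 4 pairs in each direction each time (edgeR adjusted p = 0.902, 0.999 and 0.999). The difference between the hairpin effects on the chains was not tested.

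The interleukin 12 receptor was represented by 1 chain. Il12rb1, which encodes the chain shared with the interleukin 23 receptor, had 0 counts in shCD8 small intestine Asbt+/+, which allows up to 1.18 CPM at 3 counts. It was 14.8, 22.3 and 23.8 CPM in the shMdr1 Asbt+/+, shCD8 Asbt-/- and shMdr1 Asbt-/- libraries of small intestine. In spleen it was 27.1 and 31.6 CPM with shCD8 and 18.7 and 14.8 CPM with shMdr1, in Asbt+/+ and Asbt-/- hosts. Its values rest on 0 to 66 counts, and its log2 fold changes of -0.89 ± 1.08 between tissues, 0.20 ± 1.04 between hairpins and 0.88 ± 1.05 between hosts did not pass edgeR (adjusted p = 0.883, 0.999 and 0.996). Without both small intestine Asbt+/+ libraries these were 0.08, -0.50 and -0.02.

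Il12rb2, which encodes the signalling chain that marks type 1 commitment, had 1 count in shCD8 spleen Asbt+/+, 1 in shMdr1 spleen Asbt-/- and 0 in the other 6 libraries. At 3 counts, the limit that a count of 0 allows, its level would be 1.18 to 1.93 CPM, depending on the library. In GENCODE vM21, which is not the annotation the counts were made with, 1519 of the 3794 exonic bases of Il12rb2 also lie in exons of Serbp1 on the opposite strand. Neither the strand setting nor the handling of such overlaps is stated in the sources used here, and their part in the low count was not tested. Overlaps with other genes were also present for Ifng (336 of 1295 bases, Gm49751), Stat4 (1033 of 3872, Gm28177) and Eomes (118 of 4155, Gm33460), so their counts can hold or lack reads of those genes.

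Stat4, the transcription factor that carries the interleukin 12 signal, varied less than the T-box factors. In small intestine it was 67.4 and 119 CPM with shCD8 and shMdr1 in Asbt+/+ hosts, and 133 and 160.5 CPM in Asbt-/- hosts. In spleen it was 83.0 and 94.9 CPM in Asbt+/+ hosts and 111 and 83.1 CPM in Asbt-/- hosts. The 2 small intestine Asbt-/- libraries were the highest of the 8, and shCD8 small intestine Asbt+/+ the lowest. The log2 fold change was 0.31 ± 0.29 between tissues, 0.22 ± 0.29 between hairpins and 0.41 ± 0.28 between hosts, with 3 of 4 pairs higher each time (edgeR adjusted p = 0.831, 0.999 and 0.996).

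Cxcr3, a receptor for interferon-induced chemokines that T-bet drives, was 215 CPM in shCD8 small intestine Asbt+/+ and 80.9 CPM in shMdr1 small intestine Asbt+/+, the highest and the lowest of the 8. The other 6 libraries lay between 106 and 139 CPM. The log2 fold change was 0.23 ± 0.31 between tissues, -0.19 ± 0.31 between hairpins and -0.15 ± 0.31 between hosts (edgeR adjusted p = 0.896, 0.999 and 0.996). Without both small intestine Asbt+/+ libraries the hairpin value was 0.18. Of its ligand genes, Cxcl9 passed as higher in small intestine, at 43.2 ± 24.2 against 0.258 ± 0.309 CPM (mean ± SD, n = 4). The more abundant ligand gene Cxcl10 did not pass, at 176 to 385 CPM in small intestine and 158 to 255 CPM in spleen.

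Across the 8 libraries, the members did not follow 1 common pattern. Pearson correlations of log2 CPM, given as a description over libraries that share tissue, hairpin and host labels, were 0.81 for Tnf with Stat4, 0.71 for Ifng with Stat4 and 0.56 for Tbx21 with Il18rap. They were -0.81 for Il18rap with Eomes, -0.79 for Tnf with Cxcr3 and -0.34 for Tbx21 with Eomes. Ifng with Tbx21 gave 0.30. Among 5074 other genes with a mean of at least 20 CPM, those most like Ifng were Slc2a3, a glucose transporter gene (0.96), Slc35b1 (0.96) and Prdx1, a peroxiredoxin gene (0.95), and Tbc1d10c was least like it (-0.96). For Tbx21 they were Rer1 (0.95), Vps53 (0.94) and Auh (0.85), with Il4, the type 2 cytokine gene, at the other end (-0.91). For Tnf they were Mlec (0.99), Slc38a1 (0.99) and Tmem9b (0.98), with Sephs1 at -0.99. Tnf was lowest (31.5 CPM) and Cxcr3 highest (215 CPM) in shCD8 small intestine Asbt+/+, the library with counts for only 8456 genes. How far that library alone sets the correlations of Tnf and Cxcr3 was not tested.

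Other genes of the pathway were read from lists chosen with earlier results of these data known. Of 13 genes of interleukin 12 and interleukin 18 signalling, all tested, none passed in any comparison, and their medians were 0.04 between tissues, -0.12 between hairpins and 0.10 between hosts, beside -0.17, 0.09 and 0.11 for all genes. Gadd45b, a stress-signal adaptor that the interleukin 12 pathway induces, had the smallest p between tissues (1.20 ± 0.26, edgeR adjusted p = 0.0845), and Jak2, the kinase bound to the interleukin 12 receptor, stood at 0.90 ± 0.30 between tissues and -0.73 ± 0.30 between hairpins (adjusted p = 0.375 and 0.999). Of 13 transcription regulators 11 were tested and none passed. Bhlhe40, a factor that supports interferon gamma production, was 0.88 ± 0.26 and Irf8 2.20 ± 0.81 between tissues (edgeR adjusted p = 0.283 and 0.446).

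Of 11 genes of the interferon gamma receptor and its signal 9 were tested, and 1 passed between tissues, Cxcl9. Ifngr1, a receptor chain, was 0.97 ± 0.23 between tissues without passing (edgeR adjusted p = 0.135). Of 13 effector products 11 were tested, and Gzmb, a cytotoxic granule protease gene, rose in small intestine (log2 1.91 ± 0.29, edgeR adjusted p = 0.0170). That list had a median of 1.39 between tissues with 10 of 11 above 0, of 0.42 between hairpins, and of -0.46 between hosts with 10 of 11 below 0. Of all tested genes, 41.2% were above 0 between tissues, 55.1% between hairpins and 57.3% between hosts. Nkg7, a cytotoxic granule gene, was 1.37 ± 0.30 between hairpins and -0.83 ± 0.30 between hosts, and Gzmb -0.66 ± 0.28 and -1.12 ± 0.29, none of which passed edgeR (adjusted p = 0.999 and 0.996 for each gene). Of 12 type 1 surface receptors, all tested, none passed; Havcr2, an inhibitory receptor gene of type 1 cells, was 3.43 ± 0.89 between tissues (edgeR adjusted p = 0.168) and Cxcr6, a chemokine receptor gene, -0.83 ± 0.25 between hosts (adjusted p = 0.996).

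Of 12 genes of the opposing helper lineages 11 were tested. Their median between hairpins was -1.22, with 8 of 11 below 0 and none passing, and 5 of 11 were lower at an unadjusted p under 0.05, where 2.99% of all genes differed in either direction. The median was 0.04 between tissues and 0.48 between hosts. Il17a, the type 17 cytokine gene, passed as higher in small intestine (log2 2.43 ± 0.27, edgeR adjusted p = 0.00224). Between hairpins Il17a was -1.22 ± 0.26 and Il4 -2.03 ± 0.59, each lower with shMdr1 in 4 of 4 pairs without passing (edgeR adjusted p = 0.999). For comparison, the 9 tested type 1 genes had medians of 0.31, 0.20 and 0.21 between tissues, hairpins and hosts.

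Markers of other cells that can express these genes were read beside them. Cd8a was 96.3 CPM in shMdr1 small intestine Asbt+/+, 22.7 to 27.7 CPM in the small intestine Asbt-/- libraries and 0 to 12.9 CPM in the other 5, and shCD8 itself targets CD8. Summed over both CD8 genes the level ran from 0.616 to 96.3 CPM with shMdr1 and from 0 to 25.1 CPM with shCD8. The 10 NK and innate lymphoid markers summed to 86.8 to 533 CPM with shMdr1 and 167 to 431 CPM with shCD8, and to 167 to 533 CPM in small intestine and 86.8 to 352 CPM in spleen. Most of that sum came from Tyrobp (33.9 to 279 CPM) and Fcer1g (29.1 to 193 CPM), adaptor genes that myeloid cells also express. Klre1, an NK receptor gene singled out after its values were seen, was 30.2, 23.4, 36.6 and 3.08 CPM with shMdr1 in small intestine Asbt+/+ and Asbt-/- and spleen Asbt+/+ and Asbt-/-, against 0, 2.39, 9.46 and 11.0 CPM with shCD8. It was thus higher with shMdr1 in 3 of 4 pairs, without passing (edgeR adjusted p = 0.999). Another of the 4 tested markers of that list went the other way. It was lower with shMdr1 in all 4 pairs, as 7.38% of all genes were, and its hairpin groups did not overlap. Of all genes, 2.79% did not overlap in either direction. Ncr1, which defines NK cells, was at 0 in all 8 libraries, and Klrb1c had 0 to 9 counts. The 12 myeloid and antigen-presenting cell markers summed to 495 to 934 CPM in small intestine and 164 to 457 CPM in spleen, where Cd74 and H2-Aa passed as higher in small intestine. The 8 neutrophil markers summed to 10.7 to 193 CPM in small intestine and 837 to 7447 CPM in spleen, and the 6 erythroid markers to 38.3 to 105 CPM and 1089 to 41544 CPM. The 9 epithelial markers summed to 10.8 to 302 CPM in small intestine and 0 to 83.2 CPM in spleen, and the 5 B cell markers to 0.399 to 17.0 CPM and 2.50 to 9.03 CPM. The part of these cells in the values of Ifng, Tnf, Eomes, Il18rap and Cxcl9 was not tested.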

How the data were processed

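The authors deposited raw read counts per gene symbol, 1 column for each of the 8 libraries. Library kits were SMART-Seq v4, which has no molecular identifiers, followed by NEBNext, per the labels' protocols. TopHat, HTSeq, DESeq2 and the build mm9 are named in the submitters' processing notes. Their roles and versions, the annotation and the strand setting are not stated there. Counting intervals and limits (95%, 3 counts for a count of 0) cover counting error only.

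Counts were filtered with filterByExpr on the additive design, scaled with TMM and tested with the edgeR quasi-likelihood F test (edgeR 4.0.16, R 4.3.3), adjusted by Benjamini-Hochberg over all tested genes at 0.05. CPM used the scaled library sizes. The SE of a log2 fold change is its size divided by the square root of F. Tissue, hairpin and host were fitted additively over 8 libraries (4 residual degrees of freedom), so 4 libraries stand for each level over the other factors. Effects within a tissue came from a fit with 2 residual degrees of freedom, and the host-dependent hairpin effect from one with 3. Pairs are libraries alike in 2 factors, compared as log2 CPM with a prior count of 2, without a test. Alternatives used limma 3.58.1 and DESeq2 1.42.0. The script was tested on simulated data.

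The members and lists were chosen with earlier results of these data known. By rule the 10 members were always named, and of each list the genes that passed, up to 4 by smallest p, or else the 2 with the smallest p; the text names some of these.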

Additional observations from a re-analysis of the deposited data

Results flagged for a closer look

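Ifng in the shCD8 libraries had 1 sample far from the others. The shCD8 small intestine Asbt-/- library was at 1111 CPM, while the other 3 shCD8 libraries lay between 318 and 419 CPM, so the gap to its nearest neighbour was 0.872 of the whole range. The 4 libraries differ in tissue and host, and 54 such sets of 4 (9 genes, 6 levels) were examined, of which chance marks about 1 in 20.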

How the results depend on the processing

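None of the 9 tested genes passed between tissues, hairpins or hosts in any of the 16 alternatives, so no call was lost or gained there. Over all tested genes, the 62 calls between tissues became 165 with no filter, 259 with DESeq2, 39 without both small intestine Asbt+/+ libraries and 11 to 137 when each library was left out. The 0 calls between hairpins became 9 with no filter and 4 with DESeq2, and the 0 between hosts became 14, 8 and, with a library left out, 0 to 4. With a replicate block over matched library pairs, 54 genes passed between tissues and no member did; the labels give every group 1 replicate, so pairs share factors and not animals.

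Over 9 genes, 3 comparisons and 16 alternatives, the direction turned for 35 values, each of a gene in a comparison under an alternative. Their log2 values were at most 0.54 in size. Without both small intestine Asbt+/+ libraries, Il12rb1 was 0.075 between tissues, -0.50 between hairpins and -0.018 between hosts, and between hairpins Ifng was -0.29 and Cxcr3 0.18. Il12rb1 between hairpins was -0.052 with limma-voom and -0.16 without covariates. Between hosts Ifng was 0.026 and 0.11 in those fits, and Il18r1 was 0.020 with limma-voom, 0.026 with the replicate block and 0.00030 without hemoglobin, mitochondrial and ribosomal RNA counts. With each library left out, the range between tissues was -0.11 to 0.92 for Tnf, -0.32 to 0.081 for Il18r1 and -0.085 to 0.49 for Cxcr3. Between hairpins it was -0.32 to 0.51 for Ifng, -0.54 to 1.02 for Il12rb1, -0.12 to 0.26 for Il18r1 and -0.36 to 0.10 for Cxcr3. Between hosts it was -0.48 to 0.44 for Ifng, -0.059 to 0.94 for Tnf, -0.15 to 0.26 for Il18r1, -0.51 to 0.028 for Il18rap, -0.41 to 0.18 for Cxcr3 and -0.054 to 0.56 for Eomes. For the hairpin effect that differs by host, 0 to 2 members passed with a library left out. The 2 were Tnf and Il12rb1, without shCD8 spleen Asbt+/+. This was the only fit with 1 library left out in which any gene passed, and genes other than members passed there too. Its shCD8 side of Asbt+/+ hosts rests on shCD8 small intestine Asbt+/+ alone, so these calls are not read as a result. The cause of the changes with processing was not tested. Counts of 27 to 126 for Tbx21, 15 to 190 for Eomes and 0 to 66 for Il12rb1 limit their precision.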
